A study of Mus musculus with 10 samples.

Results

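Clustered distal SOX2 regions are stretches of the genome where SOX2 was bound away from protein-coding gene ends and close to a further SOX2 region. They were chosen from the deposited SOX2 peak lists. A region was kept when peaks of both SOX2 libraries overlapped by at least 1 bp. It became a member when its summit lay over 5 kb from every protein-coding gene start and end and another kept region's edge lay within 12.5 kb. Of 2369 kept regions 1924 were distal by this measure, and 210 of those were members, in 103 clusters. The other 1714 distal regions had no kept region within that gap and are called isolated distal regions. The choice used the positions and presence of SOX2 peaks, and the fold enrichment that placed the summit, so SOX2 values below describe the members and were not tested.

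The lists come from embryonic stem cells of the mouse. The culture medium, 2i/LIF, combines a pair of kinase inhibitors with the cytokine LIF and maintains naive pluripotency. SOX2 or SOX15 carried an HA epitope tag from a knock-in allele, per the series' design text. The cells were crosslinked with 1% formaldehyde for 5 minutes and the tagged protein was precipitated for sequencing (ChIP-seq). There were 2 SOX2-HA and 3 SOX15-HA ChIP libraries, and 5 input libraries that were not analysed here. Both groups of cells thus differ in the tagged factor. Whether a line was 1 clone, or replicates were separate cultures, is not stated in the labels, so the spread between replicates may be technical.

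SOX2 and SOX15 are transcription factors that bind DNA through an HMG box, a domain that recognises a short AT-rich site and bends the helix. In naive embryonic stem cells SOX2 binds enhancers together with OCT4, and several such sites often lie close together around genes of the pluripotency network. SOX15 belongs to another SOX subgroup, and its HMG box is closely related to that of SOX2. Small nuclear RNAs (snRNAs) are the RNA parts of the spliceosome, made from short, highly transcribed genes with many similar copies. Small nucleolar RNAs (snoRNAs) guide or support the processing of ribosomal RNA.

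The RefSeq sequence tables used here (GRCm38.p6, whose coordinates are those of mm10) hold promoters and miRNAs, and no genome sequence was used. The promoter of Mtf2, a gene for a partner of Polycomb complex PRC2, is shown because the summit of a kept region that made a distal region inside Mtf2 a member lies in it (chr5:108065424-108065673, plus strand, the 250 bases before the start). The capitals mark the letters of the SOX word ACAAAG, read on the opposite strand.
Mtf2 promoter: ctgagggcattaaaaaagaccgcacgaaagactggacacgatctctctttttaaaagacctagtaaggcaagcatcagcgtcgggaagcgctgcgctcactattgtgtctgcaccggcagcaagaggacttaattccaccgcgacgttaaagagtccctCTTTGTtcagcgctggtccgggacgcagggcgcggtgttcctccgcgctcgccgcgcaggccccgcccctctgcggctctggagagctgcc
The words searched on both strands were ACAATG and ACAAAG (SOX words) and ATGCAAAT and ATGCTAAT (octamer words of OCT-type factors); none of these overlaps another in the window. The single match lay 29.5 bp from the summit at position 108065556. A SOX word is common, as 25.2% of 32851 promoter windows of 250 bases held one of the pair (ACAAAG 16.5%, ACAATG 10.7%), against 1.60% with ATGCAAAT and 0.828% with ATGCTAAT. A match is a description of letters and not a binding site.

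Some miRNAs of the miR-290 family are shown because 2 members lie beside their gene cluster on chromosome 7. These miRNAs are abundant in embryonic stem cells and promote their rapid cell cycle. Capitals mark the seed, bases 2 to 8 from the 5′ end, which pairs with target mRNAs.
miR-291a-3p: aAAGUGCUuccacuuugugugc
miR-294-3p: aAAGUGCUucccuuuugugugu
miR-295-3p: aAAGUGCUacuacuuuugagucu
miR-290a-3p: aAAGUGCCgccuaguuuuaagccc
miR-291b-3p: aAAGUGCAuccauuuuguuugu
miR-293-3p: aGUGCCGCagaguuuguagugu
Among the miRNAs shown, the first 3 share the seed AAGUGCU, and no seed of the others occurs more than 1 time. Others of the family are not shown. The members lay at chr7:3193095-3193495 and chr7:3201191-3201659, the nearer 17.3 kb from Mir290a (chr7:3218626-3218708). Their deposited SOX2 folds were 4.49 and 9.89 in replicate 1 and 17.8 and 10.3 in replicate 2, so the order of the pair differed between libraries. No SOX15 library had a peak at either.

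Most clusters were pairs. Of the 103 clusters 91 held 2 kept regions, 10 held 3, 1 held 4 and 1 held 6. The clusters held 222 kept regions in all, of which 12 in 11 clusters were not members because their summit lay within 5 kb of a gene end. A cluster spanned from 0.759 to 29.9 kb with a median of 6.19 kb. In the pairs the summits lay 5.09 kb apart in the median (0.487 to 12.5 kb). In 22 of the pairs the gap was under 2 kb. The shortest span, 759 bp, was near Arl4a (chr12:39997692-39998450), and the longest, 29905 bp, lay between Mreg and Pecr on chromosome 1. In 48 clusters (46.6%) every kept summit lay inside 1 protein-coding gene.

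The deposited SOX2 fold enrichment of the members was close to that of isolated distal regions. This fold is the authors' linear ratio over the caller's background at a peak, and is comparable only within a list. In replicate 1 the member median was 8.90, with quartiles of 6.95 and 13.8 and a range of 3.23 to 51.6, against a median of 8.67 in isolated distal regions. In replicate 2 it was 11.6, with quartiles of 8.31 and 17.4 and a range of 3.92 to 59.5, against 11.1. Median peak width was 321 bp in members and 308 bp in isolated regions in replicate 1, and 416.5 and 398 bp in replicate 2. The 2 libraries placed the summit 23 bp apart in the median at members and 21 bp at isolated regions. Across the 210 members log2 fold in the 2 libraries had a Pearson r of 0.65 and a Spearman rho of 0.62, a description over regions of the same 2 libraries.

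**Figure D1:**
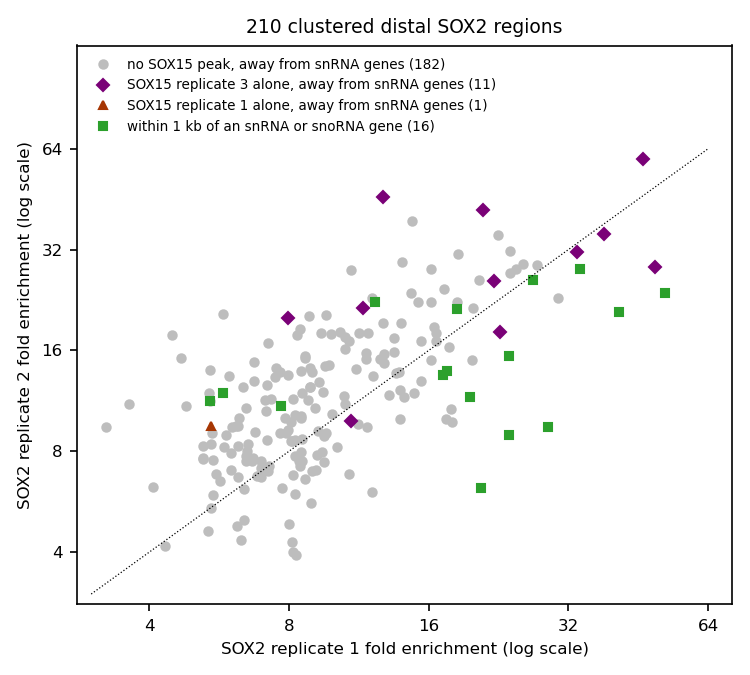
Deposited SOX2 fold enrichment of the 210 members in replicate 1 (horizontal, log scale) and replicate 2 (vertical, log scale), 1 point per member, with the dotted line of equal values. Squares mark the 16 members with an snRNA or snoRNA gene no more than 1 kb away, 11 of which lie to the right of the line. Diamonds mark the 11 other members with a SOX15 replicate 3 peak, most of which lie towards the upper right.

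Members lay inside protein-coding genes about as often as other kept regions. The summit was inside a gene in 102 of 210 members (48.6%, Wilson 95% interval 41.9 to 55.3), against 44.7% of isolated distal and 45.2% of all kept regions. A lncRNA gene body covered 26 summits (12.4%, against 12.0% of isolated regions). The nearest protein-coding gene end was 30.6 kb away in the median for members and 37.1 kb for isolated regions, and 19 members (9.05%) against 292 isolated regions (17.0%) lay over 100 kb from a gene. A SOX2 peak called in 1 library alone lay within 12.5 kb of 42 members (20%) and of 178 isolated regions (10.4%). These intervals cover counting error only, and neighbouring members share a locus. Chromosome 1 held the most members, 23 of its 186 kept regions (12.4%). Chromosome 11 followed with 19 of 164 (11.6%), 9 of them at snRNA or snoRNA genes. As a share of kept regions chromosomes 8 (18 of 141, 12.8%) and 7 (14 of 110, 12.7%) were the highest and chromosome 13 (2 of 123, 1.63%) the lowest.

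The largest cluster lay between Mreg, a gene of melanosome transport, and Pecr, which encodes an enzyme of fatty acid chain elongation. Its 6 kept regions covered chr1:72226260-72256164. SOX2 folds in replicates 1 and 2 were 33.9 and 28.0 in the first region, 17.7 and 16.4 in the second, 20.7 and 6.22 in the next at Gm23472, 6.97 and 7.49 in the one after, and 29.0 and 9.43 at Gm24497. In the last, which was within 5 kb of Pecr and not a member, they were 27.9 and 11.4. The snRNA genes Gm25360 and Gm25939 lay within 1 kb of the first and the last, and the other two regions had no such gene. All 4 regions at snRNA genes were called in each SOX15 library, and neither of the other two was called in any.

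The cluster of 4 lay downstream of Sox2, between 93.0 and 109 kb from the gene, all 4 being members. A distal enhancer group known as the Sox2 control region lies downstream of the gene in this direction. SOX2 folds were 8.46 and 18.6 at chr3:34745127-34745708 and 5.47 and 9.05 at chr3:34756493-34757014. They were 6.83 and 6.73 at chr3:34757941-34758265, and 6.16 and 9.51 at chr3:34761200-34761658. The first was the highest of the 4 in both libraries. The kept region 1.59 kb from the gene (chr3:34653762-34654340), not a member, had 33.3 and 35.3, above all of the 4. None of these 5 regions had a SOX15 peak.

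Esrrb, an orphan nuclear receptor of the naive network, held 3 members inside its body. Folds were 16.6 and 17.0 at chr12:86498790-86499202 and 38.1 and 35.6 at chr12:86501394-86502158. At chr12:86504373-86505020 they were 5.44 and 9.51. The middle region was the highest in both libraries. SOX15 replicate 3 had a peak at the middle region (fold 6.43) and SOX15 replicate 1 at the last (6.40, its summit 475 bp from that of SOX2). Between these, at chr12:86502708-86503656 in SOX15 replicate 1 (fold 7.67) and chr12:86503191-86503406 in replicate 2 (6.27), peaks lay on no kept region.

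Sall1, a zinc finger gene active in embryonic stem cells, had 3 members 11.4 to 35.1 kb away. The middle one (chr8:89003343-89004085) had folds of 49.2 and 28.4, against 8.06 and 8.58 in the first and 10.6 and 17.5 in the last. Klf4, a reprogramming and naive factor, had 3 members 49.5 to 62.7 kb from the gene. Their folds ran from 8.67 to 16.2 in replicate 1 and from 15.4 to 23.8 in replicate 2, with the lowest in the middle in both. Fat1, a giant cadherin, held 3 members with 8.24 and 5.98, 6.20 and 6.71, and 14.7 and 38.8. Arid5b, a chromatin regulator, held 3 with 5.69 and 6.51, 8.25 and 10.2, and 16.6 and 18, in the same order in both libraries. Epha4, a receptor of ephrin ligands, held 3 with 7.49 and 14.2, 8.91 and 5.62, and 6.41 and 6.18, and here the highest region differed between libraries.

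**Figure D2:**
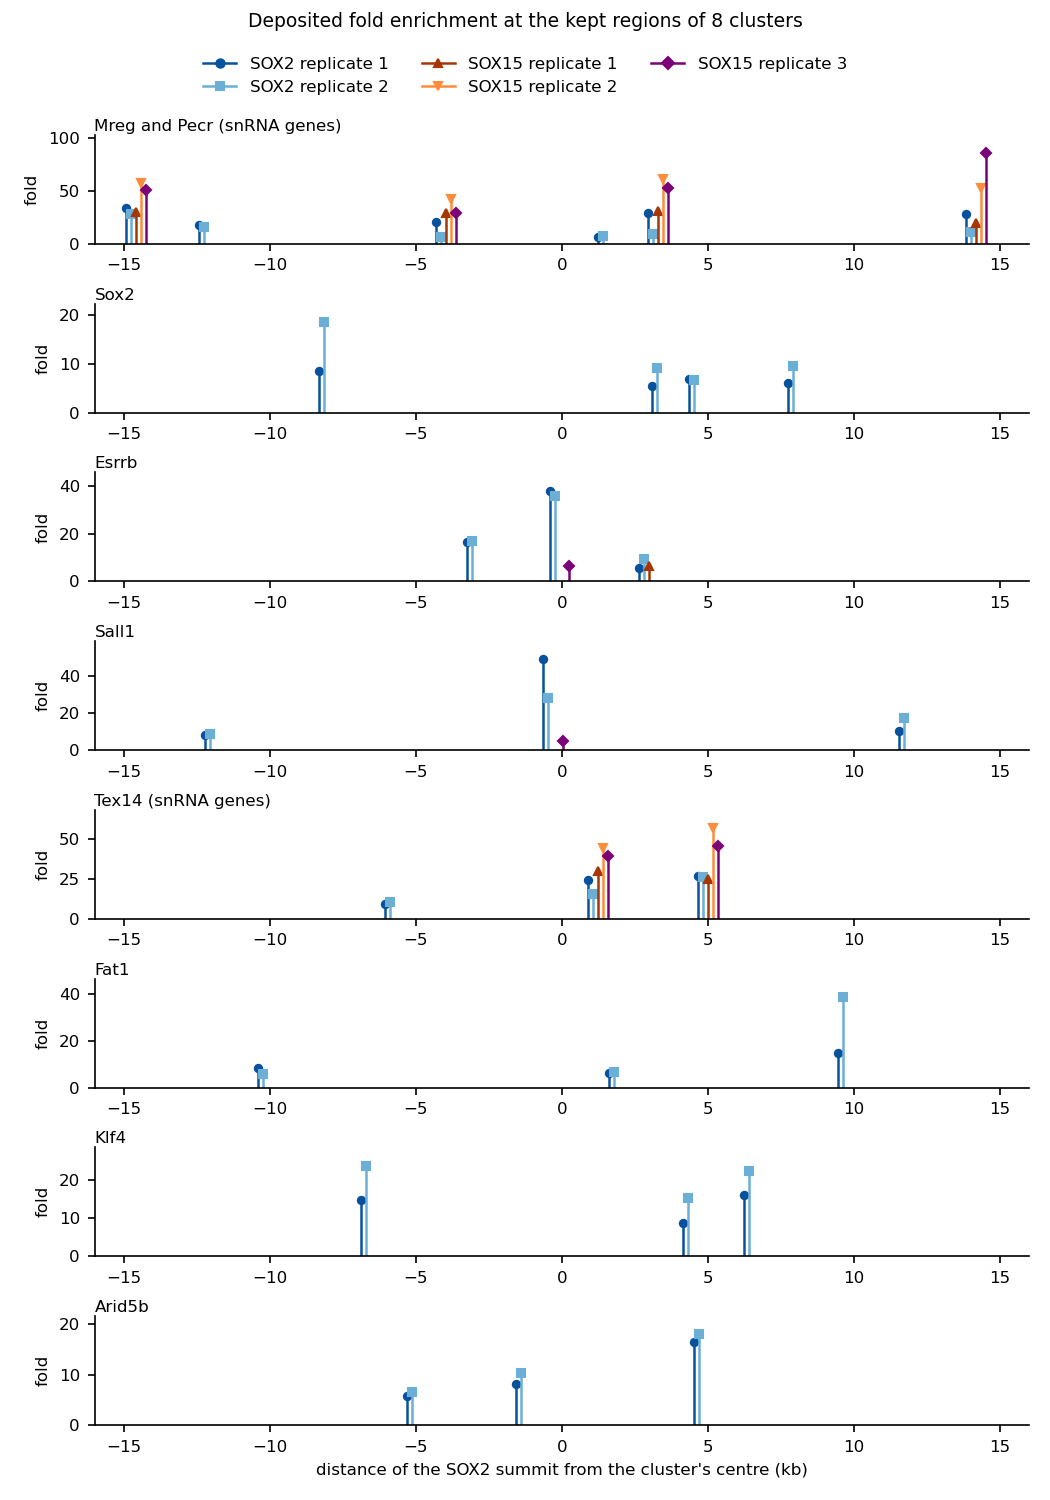
Deposited fold enrichment (vertical, linear, 1 scale per panel) at the kept regions of 8 of the largest clusters against distance of the SOX2 summit from the cluster's centre in kb, with the libraries of 1 region set slightly side by side. SOX15 symbols stand at 4 of 6 regions between Mreg and Pecr and 2 of 3 in the first Tex14 cluster, and at no region of the Sox2, Fat1, Klf4 and Arid5b clusters.

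The 10 members of highest mean percentile rank of fold were near or inside Vwa3b, Esrrb, Sall1, Ranbp17, Mreg, Tex14, Cdh13, Btbd11, Bcat1 and Tead1. The first (chr1:36985659-36986305, 43.2 kb from Vwa3b) had 46.2 and 59.5, while its neighbour 1.51 kb away had 5.23 and 7.63. The member inside Tead1, a transcription factor of the Hippo pathway (chr7:112690996-112691704), had 22.5 and 35.4, and its neighbour 8.13 and 8.58. Inside Bcat1, an enzyme of branched-chain amino acid breakdown, the pair had 23.9 and 31.6, and 7.99 and 4.86. Inside Btbd11 the values were 25.6 and 29.1, and 8.86 and 12.5. Inside Cdh13, a cadherin without a cytoplasmic tail, they were 27.4 and 28.8, and 9.36 and 18.1. In each of these 5 pairs the same region was the higher one in both libraries. The pairs were picked for a region of high mean rank over both libraries, which favours this order.

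Over the 91 pairs the higher region was the same in both libraries in 67 (73.6%). The higher fold was 1.45 times the lower in the median in replicate 1 (1.03 to 8.84) and 1.48 times in replicate 2 (1.01 to 7.79). With the order taken from replicate 1, the median ratio in replicate 2 was 1.33. Of 31 pairs at least 2-fold apart in replicate 1, 26 (83.9%) kept the order in replicate 2, and of 24 such pairs in replicate 2, 23 (95.8%) kept it in replicate 1. All 14 pairs at least 2-fold apart in both libraries had the same order. The widest was the Vwa3b pair, at 8.84 and 7.79 times. A pair inside Lifr, the LIF receptor, was close to equal in both libraries, at 1.03 and 1.02 times. The order of pairs drawn from regions outside clusters was not computed, so these counts show no trait particular to clusters. The Pearson r of log2 fold between the SOX2 libraries was 0.65 in members and 0.65 in isolated distal regions.

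**Figure D3:**
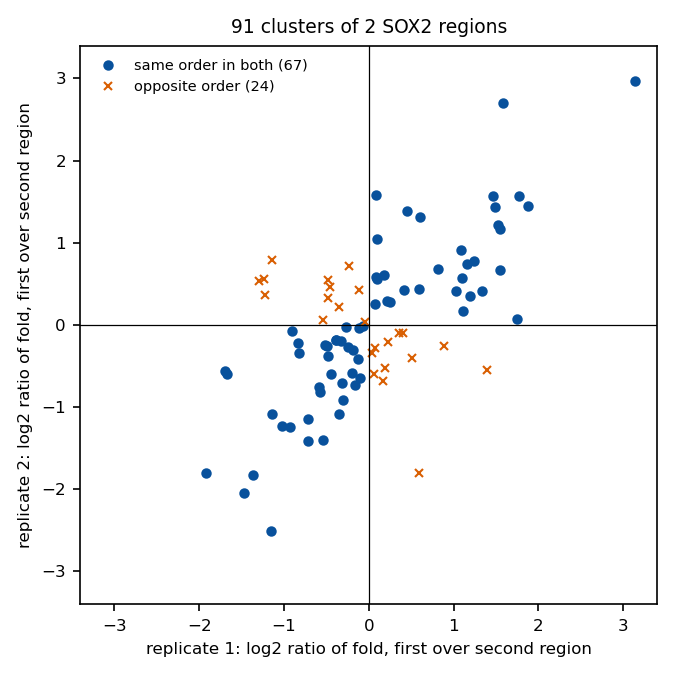
Log2 ratio of deposited SOX2 fold, first over second region by coordinate, for the 91 clusters of 2 regions in replicate 1 (horizontal) and replicate 2 (vertical), 1 point per pair. Dots are the 67 pairs with the same order in both libraries and crosses the 24 with opposite order; every pair beyond 1 on both axes is a dot, in the upper right or lower left.

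SOX15 lists were not used in the choice of members, so SOX15 peaks at members can be compared with those at isolated distal regions. A region counted as called when a SOX15 peak overlapped it by at least 1 bp. SOX15 replicate 1 called 16 members (7.62%, Wilson 95% interval 4.74 to 12.0), against 3.04% of all kept regions and 11 isolated regions (0.642%). Replicate 2 called 15 (7.14%, 4.38 to 11.4), against 3% of all kept regions and 10 isolated ones (0.583%). Replicate 3 called 25 (11.9%, 8.20 to 17.0), against 7.81% and 92 isolated ones (5.37%). The 445 kept regions that were not distal were called more often than members in each library, at 10.1, 10.3 and 15.3%. In any library 27 members were called (12.9%, 8.99 to 18.1), against 8.02% of all kept regions. In at least 2 libraries 15 members were called (7.14%), against 3.04% of all kept regions and 0.583% of isolated ones. In all 3 libraries 14 members were called (6.67%), against 2.79% of all kept regions and 0.583% of isolated ones.

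The share was higher in members than in isolated regions in each of the 3 SOX15 libraries, by 6.98, 6.56 and 6.54 percentage points. The mean difference was 6.69 ± 0.248 points (SD, n = 3). It was 2.25 points when SOX2 replicate 1 was left out and every replicate 2 peak counted as a region. A two-sided exact sign-flip permutation test of the 6.69 points over the 3 libraries gave p = 0.25, the smallest that 3 libraries allow, so this design cannot pass a threshold of 0.05. Members lay at snRNA or snoRNA genes more often than isolated regions did. An snRNA or snoRNA gene lay within 1 kb of 16 members (7.62%), against 6 isolated regions (0.350%) and 38 of all kept regions (1.60%). A further 20 kept regions, none of them a member or an isolated distal region, had a clustered histone gene at no more than 1 kb. So a region may be distal to protein-coding genes and still lie at a small RNA gene. The 16 members lay in 8 clusters, 3 of them inside Tex14, so they are not independent. Distal kept regions at gene copies within 12.5 kb of each other are members by the rule and cannot count as isolated.

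Of these 16 members 15, 15 and 14 were called in SOX15 replicates 1, 2 and 3. Of the remaining 194 members 1 (0.515%), 0 and 11 (5.67%, 3.20 to 9.87) were called, where 0 of 194 allows a share of up to 1.55% when 3 counts are taken as the limit (Wilson upper bound 1.94%). Isolated regions without snRNA, snoRNA or histone genes within 1 kb, 1708 in number, had 7 (0.410%), 6 (0.351%) and 88 (5.15%). The differences were then 0.106, -0.351 and 0.518 points, a mean of 0.0907 ± 0.435 points (SD, n = 3; exact sign-flip permutation p = 0.75). With these genes set aside the difference was within the spread between libraries. The classes of small RNA and histone genes were chosen in earlier work on these lists, after their values were seen. Reads of near-identical gene copies can map to several places, and the part of this in the values was not tested.

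**Figure D4:**
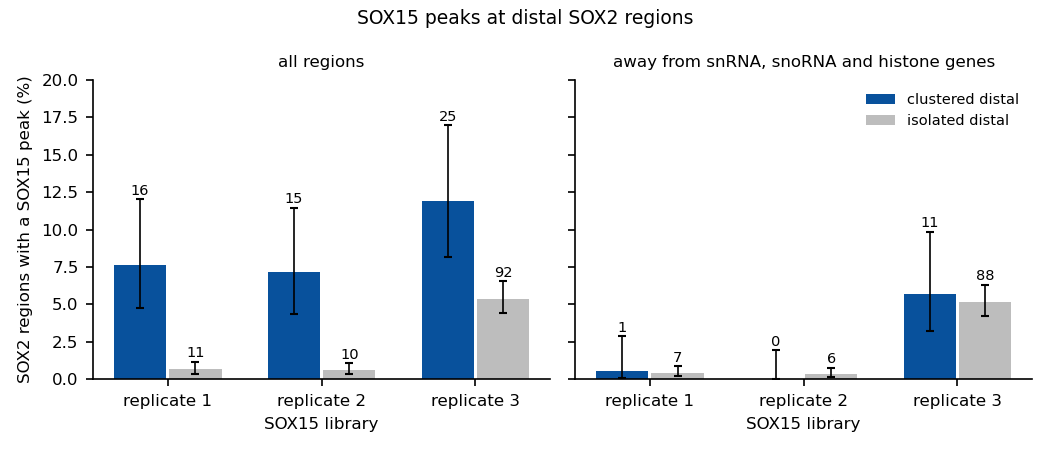
Share of distal SOX2 regions with a SOX15 peak (percent, vertical) in each SOX15 library, for clustered and isolated regions; bars carry Wilson 95% intervals for counting error and the number called. On the left all regions are used and the clustered bar is higher in each library (11.9 against 5.37% in replicate 3); on the right, away from snRNA, snoRNA and histone genes, the bars are 5.67 and 5.15% in replicate 3.

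The members at small RNA genes had high SOX15 folds. Over those called, the lowest, median and highest SOX15 fold was 8.75, 30.5 and 58.7 in replicate 1, 15.6, 41.7 and 61.1 in replicate 2, and 11.4, 45.5 and 72.7 in replicate 3. The SOX15 summit lay 18, 26 and 48.5 bp from the SOX2 summit in the median. These regions were also wide in the SOX2 lists, at 734 and 680 bp in the median, against 309.5 and 411.5 bp in the other members. Their percentile rank of SOX2 fold was higher in replicate 1 than in replicate 2 in 11 of 16 (medians 93.4 and 81.8). In the other 194 members this held for 56 (28.9%; medians 54.4 and 73.6), and in isolated regions for 29.2%. Both SOX2 libraries thus ranked the members at small RNA genes above the others in the median, with a wider gap in replicate 1; the lists differ in length, and these ranks were not tested.

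Inside Tex14, a gene of the germ cell intercellular bridge, lay 3 clusters. The first held the U1 snRNA gene Rnu1a1, whose RNA recognises the 5′ splice site, at chr11:87422659-87423775, with SOX2 folds of 23.9 and 15.4 and SOX15 folds of 29.6, 44.4 and 38.9. Beside it the snRNA gene Gm22068 (chr11:87426631-87427861) had 26.8 and 25.9 for SOX2 and 24.8, 56.5 and 45.4 for SOX15. The remaining region of that cluster (chr11:87416041-87416399), at no small RNA gene, had 9.10 and 10.7 for SOX2 and no SOX15 peak.

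The other two Tex14 clusters were pairs at genes of the U3 RNA, which acts in ribosomal RNA processing. At Rnu3b1 (chr11:87443276-87443967) SOX2 folds were 41.2 and 20.8 and SOX15 folds 48.1, 52.8 and 72.7. At Rnu3b3 (chr11:87448661-87449445) they were 51.6 and 23.8, and 58.7, 24.5 and 58.9. At Rnu3b4 (chr11:87462360-87462916) they were 12.3 and 22.4, and 38.5, 18.4 and 43.4. At Rnu3b2 (chr11:87471440-87471852) they were 5.77 and 11.9, and 8.75, 38.8 and 23.4. Rnu3b3 had the highest SOX2 fold of all members in replicate 1, and the order of the 4 copies differed between SOX15 libraries.

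Elsewhere on chromosome 11 a pair near Rdm1 lay at the snRNA genes Gm24950 (SOX2 17.6 and 13.9; SOX15 15.3, 15.6 and 11.4) and Gm23971 (7.70 and 10.9; 21.5 and 25.8, with no replicate 3 peak). On chromosome 9 a pair lay at Gm25313 near Igdcc3 (17.1 and 13.5; 44.4, 41.7 and 55.1) and at Rnu5g, a gene of the U5 snRNA that holds exons together during splicing (18.4 and 21.3; 36.3, 35.3 and 45.6). On chromosome 4 a cluster of 3 held 2 members, at Gm25099 near Kif2c (19.7 and 11.6; 55.9, 50.7 and 47.3) and at Gm23143 near Armh1 (23.8 and 8.95; 27.0, 29.3 and 32.6). Its partner at Gm23287, within 5 kb of a gene end, had 18.1 and 4.64, and 13.6, 20.7 and 23.7. Between Mreg and Pecr the SOX15 folds were 30.5, 57.9 and 51.5 at Gm25360, 29.7, 43.0 and 28.9 at Gm23472, 31.4, 61.1 and 52.8 at Gm24497, and 20.2, 52.8 and 86.1 at Gm25939. The exception was inside Rab11fip4, where the member within 1 kb of Gm25867 (chr11:79636041-79636396; SOX2 5.42 and 11.3) had no SOX15 peak.

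The remaining SOX15 calls came almost wholly from replicate 3. The 11 members it called away from small RNA genes had SOX15 folds of 4.60 to 10.2 with a median of 6.43, and its summit was 26 bp from that of SOX2 in the median (3 to 238 bp). They lay near or inside Vwa3b (10.2), Pkd2l1 (8.14), Mtf2 (7.28), Syt9 (6.68), Cep170 (6.58), Esrrb (6.43), Gabrp (6.32), Tet2 (5.96), Ranbp17 (5.75), Sall1 (4.92) and Dym (4.60). Most of these were high in the SOX2 lists, with median folds of 22.1 and 28.4 over the 11. The medians were 8.52 and 11 in the 183 members away from small RNA genes that replicate 3 did not call. The list of replicate 3 reaches down to a −log10 q-value of 1.31, against 2.76 and 2.03 in SOX15 replicates 1 and 2. With only its peaks at a −log10 q-value of at least 5, it called 10 of the 11 members. The part of the lower floor in these calls was not tested. Neither of the other two SOX15 libraries called any of these 11 members.

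The same was seen in isolated regions of like SOX2 rank. With all kept regions split into 3 equal classes by mean rank of SOX2 fold, replicate 3 called 9 of 69 members in the highest class (13%, Wilson 95% interval 7.02 to 23.0) and 74 of 564 isolated regions (13.1%, 10.6 to 16.2), small RNA and histone genes set aside. In the middle class it called 2 of 59 members (3.39%) and 6 of 586 isolated regions (1.02%). In the lowest class it called 0 of 66 members and 8 of 558 isolated regions (1.43%). Inside clusters the call was not always at the region of highest SOX2 rank. Of 11 clusters without a small RNA gene and with a replicate 3 peak at a single kept region, that region had the highest SOX2 rank of its cluster in 7 and a lower rank in 4.

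**Figure D5:**
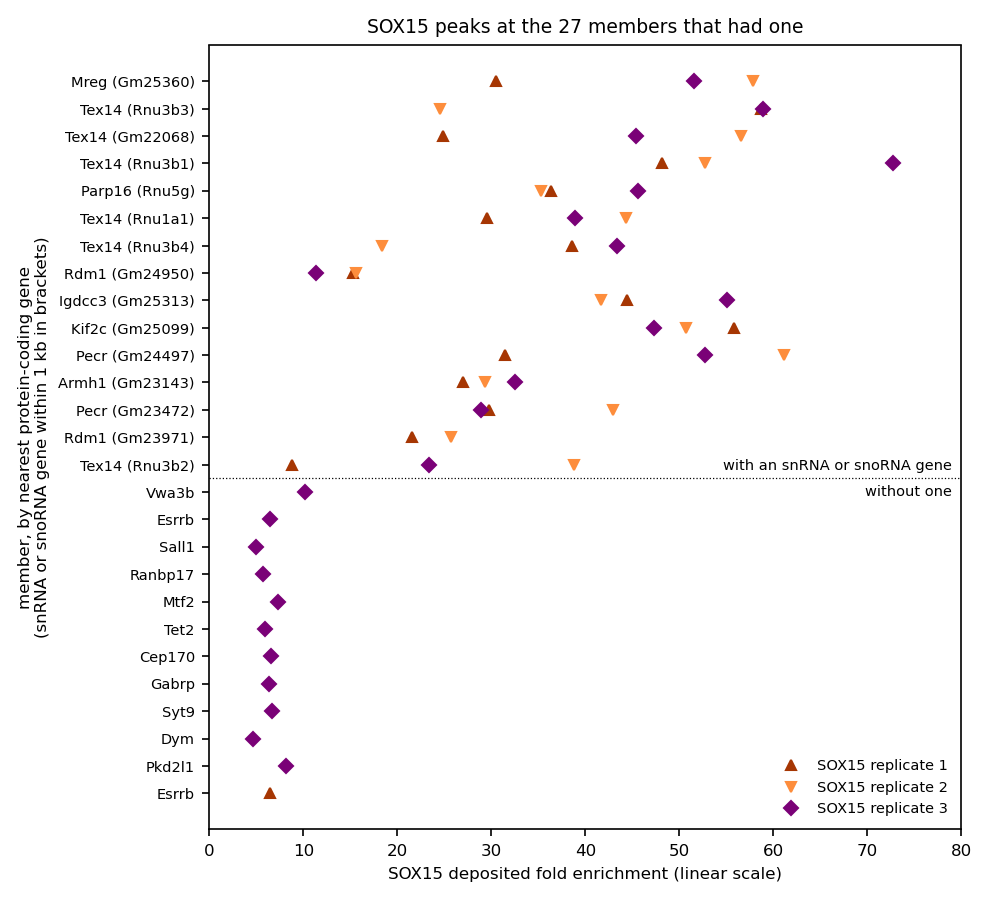
Deposited SOX15 fold enrichment (horizontal, linear scale) in the 3 SOX15 libraries at the 27 members with at least 1 SOX15 peak, 1 row per member, ordered by SOX2 rank above and below the dotted line. The 15 rows at snRNA or snoRNA genes carry folds of 8.75 to 72.7, and the 12 rows without one carry a single call each, 11 of replicate 3 and 1 of replicate 1.

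At the level of clusters, 19 of 103 had a SOX15 peak at a kept region. They included 7 of the 8 clusters with a small RNA gene, which held 22 kept regions, 17 of them called. In 6 of the 19 every kept region was called. A cluster without a small RNA gene had a SOX15 peak in 12 cases, and in 1 of these every region was called. That was the pair between Ranbp17, a nuclear transport receptor gene, and Gabrp, a GABA-A receptor subunit gene. Its regions had SOX2 folds of 33.4 and 31.4 (chr11:33527213-33527706) and 12.7 and 46.0 (chr11:33537295-33538209), so a different region was the higher in each library. Between the 2 regions, on no kept SOX2 region, all 3 SOX15 libraries had a peak, with folds of 8.99 in replicate 1, 3.80 and 7.78 in replicate 2 and 6.44 in replicate 3 (within chr11:33535385-33536690).

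Genes of the gene lists were counted by whether a member lay within 50 kb of the gene body. Of 21631 protein-coding genes 153 (0.707%) had one, and of 215 genes in 14 lists 11 did. The naive pluripotency list had the most, 5 of 18 (27.8%), namely Klf4, Esrrb, Prdm14, Tet2 and Dppa5a. Any kept region lay within 50 kb of 15 of the 18, and the share of all genes with one is not given here. The lists were chosen by known roles with earlier results of these data known, so these counts describe the list and test nothing.

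Prdm14, a repressor of differentiation genes, had a pair 28.3 and 38.8 kb away, with folds of 18.5 and 31.1 at chr1:13084759-13085386 and 5.78 and 20.5 at chr1:13074446-13074882. Tet2, a 5-methylcytosine oxidase, held a pair with 22.1 and 25.8 at chr3:133524449-133525200 and 6.02 and 9.47 at the neighbour. In both pairs the first named was the higher in each library. The member near Dppa5a, an RNA-binding protein gene of naive cells, had 6.46 and 10.8. Lifr, the receptor subunit for LIF, was the 1 gene of 14 in the LIF list, and held a pair with 17.5 and 9.98 at chr15:7115614-7116099 and 18 and 9.77 at chr15:7116591-7117154. Etv5, a factor downstream of FGF and ERK, was 1 of 16 in its list and held a pair with 13.8 and 13.8, and 13.5 and 17.5.

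Lefty1 and Lefty2, inhibitors of Nodal, were 2 of 17 in the BMP, Nodal and TGF-beta list and share 1 member (6.95 and 6.72). Eif4a2, a translation initiation factor, was 1 of 18 housekeeping genes (5.23 and 7.58). No gene had a member in the lists for WNT (18 genes), the SOX family (19), the formative and primed state (17), neuroectoderm (16), primitive endoderm (16), trophectoderm (17), mesoderm (16) and fibroblasts (14). Among the network genes looked up in every case, Sox2, Pou5f1, Nanog, Klf2, Klf5, Tfcp2l1, Tbx3 and Nr5a2 had no member within 50 kb. Of those Nr5a2 alone also had no kept region in that window. The nearest protein-coding gene of 4 members was Tbx3, the closest of them 85.4 kb away.

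Values for the members closest to the limits of the choice, and for the regions that just missed them, are given here as SOX2 folds in replicates 1 and 2. At the gap limit the last inside were the pair inside Dclk2 (11681 bp; 14.0 and 19.3, and 5.44 and 5.43) and a region near Asns (12036 bp; 6.97 and 7.15). The first outside were near Arl4d (12811 bp; 29.3 and 32.8) and Znfx1 (13047 bp; 9.27 and 9.69). At the limit on distance from a gene end the last inside were near Ireb2 (5007 bp; 7.83 and 10.1) and Negr1 (5477 bp; 6.46 and 7.47). The first outside, among clustered regions, were near Cobl (4851 bp; 7.74 and 12.8), Negr1 (4831 bp; 22.0 and 22.2) and Oxr1 (4422 bp; 8.11 and 21.6). The pair at Negr1 thus falls on both sides of the limit.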

How the data were processed

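ChIP-seq peak lists of 2 SOX2-HA and 3 SOX15-HA libraries were used, 1 list per sample, with 2676 and 4817 peaks for SOX2 and 217, 672 and 437 for SOX15. The submitters' processing notes name Bowtie2, MACS2, deepTools and the build mm10; the control and thresholds of peak calling were not given in these sources. Every deposited peak carries a fold, the authors' linear ratio over background, with a −log10 p-value and a −log10 q-value. In the deposited lists the score is the −log10 q-value times 10 without its decimals. The lists hold no read counts, so depth is unknown, and a missing peak shows only that a region was not called.

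Peaks were merged and classed by the rule given in the report, against 21631 protein-coding genes on 20 chromosomes of the RefSeq GRCm38.p6 table, which gives no strand. Shares carry Wilson 95% intervals. SOX15 shares were compared over libraries by exact sign-flip permutation. Scripts were tested on simulated lists (Python 3.11.15 with pandas 2.3.3, numpy 2.4.6, matplotlib 3.10.9 and scipy 1.17.1). The members and lists were chosen with earlier results of these data known. Named members were the 10 of highest rank, the 10 largest clusters, those called in at least 2 SOX15 libraries, those within 50 kb of listed genes and those at the limits; other names, such as those of replicate 3 calls and unequal pairs, were chosen after their values were seen. A planned search for an OCT4-SOX2 motif in the regions was not run, because no genome was used here. A few members, regions at the limits and list entries are not reported here.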

Additional observations from a re-analysis of the deposited data

How the results depend on the processing

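Except where 2 changes are named together, the values below follow from changing 1 choice at a time; the cause of each change was not tested. With a largest gap of 5 kb there were 119 members in 60 clusters and 6 listed genes, and with 25 kb there were 155 clusters. Leaving out each SOX2 library in turn, so that regions were the peaks of the other, gave 268 to 726 members, 128 to 355 clusters, 5.37 to 14.6% with any SOX15 peak and 13 to 18 listed genes; the larger counts, and the lowest SOX15 share, were without replicate 1, where the median fold in replicate 2 was 8.58. The difference in SOX15 share was then 2.25 to 8.30 points, the lower value without SOX2 replicate 1. Leaving out each SOX15 library in turn gave 7.62 to 12.9% of members with any SOX15 peak (lowest without replicate 3) and a difference of 6.55 to 6.77 points (exact permutation p = 0.5, the smallest that 2 libraries allow). Without regions at small RNA and histone genes 5.21% of isolated distal regions had any SOX15 peak, and 6.19% of members. Without these regions and without SOX15 replicate 3, a choice made after seeing the data, the share was 0.515% and the difference turned to -0.123 points (exact sign-flip p = 1). Members inside protein-coding genes made up 43.7 to 51.3% under every alternative run. No paired analysis was possible because the tested result is a share of regions within each SOX15 library, with no SOX2 library as its counterpart; whether equal replicate numbers mark a shared source is not stated in the labels. The alternatives planned for the OCT4-SOX2 motif were not run.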
